A study of Mus musculus with 12 samples.

Results

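The 10 Kruppel-like factor genes followed here, Klf1, Klf2, Klf3, Klf4, Klf6, Klf7, Klf9, Klf10, Klf13 and Klf15, were taken by gene name from the 38127 genes counted in cells sorted from mouse fetal liver (FL). The members were listed by name, though with earlier results of these data known, and each had 1 row in every table. The 12 libraries of rRNA-depleted RNA fell into 4 groups of 3, all from C57BL/6 embryos and all from cells negative for the red cell antigen Ter119 and the leukocyte antigen CD45. At embryonic day 14.5 (E14.5), P2 cells were Ter119-CD45-CD54-CD31-Kit+CD24+, CD31+ cells were Ter119-CD45-CD54+CD31+, and the cells called CD324+ here, after the E-cadherin antigen the study uses for them, were Ter119-CD45-CD54+CD31-. The fourth group held cells of that same Ter119-CD45-CD54+CD31- phenotype at E18.5. The study asked what the Kit+ cells of this compartment are, and in its RNA-seq set P2 cells against the CD324+ and CD31+ cells. It named Klf1 among the highest expressed P2 transcripts. It also used quantitative RT-PCR, colony assays and lineage tracing.

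Kruppel-like factors are transcription factors that bind GC-rich and CACCC motifs through zinc fingers at the carboxy-terminal end of the protein, which they share with the Sp factors. The rest of the protein differs between members and recruits either coactivators or corepressors such as CtBP and Sin3A. In FL, Klf1 is known for switching on red cell genes in erythroblasts, Klf2 and Klf4 for keeping endothelium quiescent under blood flow, and Klf15 for amino acid and glucose metabolism in hepatocytes.

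The libraries held 40714017 to 64368883 counts. Levels are given as CPM, counts scaled to library size, after TMM scaling of all 12 libraries, and levels of different genes are compared only as CPM per kilobase of merged exons. The sorted populations were rich in the markers of their names, though not free of others: macrophage markers summed to 1350 to 1605 CPM in CD31+ cells and to no more than 235 in the other E14.5 libraries. The summed level of 10 endothelial markers was 10851 to 11468 CPM in CD31+ cells and at most 480 elsewhere. The summed level of 10 hepatoblast markers was 72648 to 83398 CPM in CD324+ cells. The summed level of 8 erythroid markers with counts was 2155 to 2354 CPM in P2 cells and up to 860 in CD324+ cells. Gata1 was 170 to 184 CPM in P2 cells, never exceeding 34.6 in other libraries. The E18.5 libraries did not hold liver cells alone. Their summed level of 10 lung epithelial markers was 8414 to 18891 CPM, against no more than 14.7 in the E14.5 libraries, and their mesenchymal markers summed to 3913 to 4334 CPM against at most 227. E18.5 library 1 stood apart, with the most lung RNA and hepatoblast markers at 6050 CPM against 39951 and 51685 in the other two. In such bulk libraries, fewer cells of a type and less RNA per cell cannot be told apart.

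In the annotation of the counting build, GRCm38, the members lie on 9 chromosomes, each as 1 protein-coding gene. On the plus strand are Klf1 (ENSMUSG00000054191) at chr8:84901928-84905291, Klf2 (ENSMUSG00000055148) at chr8:72319033-72321656, Klf3 (ENSMUSG00000029178) at chr5:64803388-64832901, Klf6 (ENSMUSG00000000078) at chr13:5861482-5870394, Klf9 (ENSMUSG00000033863) at chr19:23141226-23168134 and Klf15 (ENSMUSG00000030087) at chr6:90462576-90475238. On the minus strand are Klf4 (ENSMUSG00000003032) at chr4:55527143-55532466, Klf7 (ENSMUSG00000025959) at chr1:64029447-64122282, Klf10 (ENSMUSG00000037465) at chr15:38291463-38300706 and Klf13 (ENSMUSG00000052040) at chr7:63886351-63938915. Counts of a gene are of reads over its exons, whose merged length ran from 1530 bases for Klf1 to 11243 for Klf3.

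Promoters of 9 of the 10 members were found in RefSeq (GRCm38.p6, 250 bases before to 50 after the start); Klf10 is named only. The promoters of Klf1, Klf2, Klf9 and Klf15 are printed because these genes had 4 different patterns, with Klf1 highest in P2 cells, Klf2 in CD31+ cells, Klf15 in CD324+ cells, and Klf9 high in both P2 and E18.5 cells. Capitals mark, on either strand, GATAA (the GATA factor core), CACCC (bound by Kruppel-like factors), the box CCAAT and the palindrome CACGTG, and in Klf2 also the MEF2 consensus of 10 bases. The motifs were chosen after the sequences had been read.
Klf1, chr8:84901732-84902031, plus strand: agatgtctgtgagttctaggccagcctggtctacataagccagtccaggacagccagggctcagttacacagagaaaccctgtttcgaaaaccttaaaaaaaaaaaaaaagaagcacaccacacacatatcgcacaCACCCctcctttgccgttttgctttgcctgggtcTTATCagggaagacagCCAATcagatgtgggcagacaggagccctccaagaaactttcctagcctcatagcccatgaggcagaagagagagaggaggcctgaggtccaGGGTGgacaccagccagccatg
Klf2, chr8:72318812-72319111, plus strand: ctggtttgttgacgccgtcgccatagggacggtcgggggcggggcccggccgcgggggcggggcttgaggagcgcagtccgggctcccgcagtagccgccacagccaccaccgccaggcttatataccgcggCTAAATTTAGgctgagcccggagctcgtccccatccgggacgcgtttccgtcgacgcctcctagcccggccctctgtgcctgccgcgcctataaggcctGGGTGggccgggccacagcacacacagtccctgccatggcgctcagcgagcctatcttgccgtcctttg
Klf9, chr19:23140976-23141275, plus strand: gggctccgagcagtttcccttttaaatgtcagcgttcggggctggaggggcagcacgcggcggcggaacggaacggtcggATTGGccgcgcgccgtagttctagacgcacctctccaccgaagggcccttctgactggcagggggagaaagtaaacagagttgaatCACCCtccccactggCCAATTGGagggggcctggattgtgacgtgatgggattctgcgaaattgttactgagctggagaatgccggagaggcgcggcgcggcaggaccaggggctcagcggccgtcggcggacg
Klf15, chr6:90462326-90462625, plus strand: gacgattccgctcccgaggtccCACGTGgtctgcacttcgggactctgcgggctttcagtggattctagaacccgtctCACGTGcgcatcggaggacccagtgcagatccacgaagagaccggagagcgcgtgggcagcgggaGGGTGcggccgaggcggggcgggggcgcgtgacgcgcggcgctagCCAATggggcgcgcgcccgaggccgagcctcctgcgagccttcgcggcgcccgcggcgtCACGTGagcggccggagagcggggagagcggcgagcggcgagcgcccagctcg
The Klf1 promoter held GATAA, the core recognised by GATA factors, at position -80 from the start, between CACCC at -114 and CCAAT at -64. It was the only one of the 9 promoters with GATAA, which 25.4% of all 32851 mouse promoters of that length hold. It was also the one with the fewest CpG, 3 against 16 to 47 in the other members, where the median of all promoters was 7. The Klf2 promoter was the only one of the 9 with the MEF2 consensus, as CTAAATTTAG at -118, and 3.19% of all promoters hold that consensus. The Klf15 promoter held 3 copies of CACGTG, a palindrome bound by basic helix-loop-helix factors, which 7.15% of all promoters hold at least once. The Klf9 promoter held 3 CCAAT boxes, a motif in 37.4% of all promoters, and no GATAA. The site that Kruppel-like factors themselves bind, CACCC, was in 57.5% of all promoters and in 7 of these 9.

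All 10 members passed the filter on low counts, and 9 of them differed among the 3 E14.5 populations (edgeR's quasi-likelihood test, adjusted p from 1.77e-08 for Klf15 to 8.64e-05 for Klf13), all but Klf3. Of all 15461 genes tested, 86.9% differed in this way, so the count of members is not set apart from that of other genes. What set members apart from each other was the population in which each was highest, as the plot of levels by library shows. Against CD324+ cells, P2 cells had 2 members higher (Klf1 and Klf9) and 7 lower, where 70% of all genes were called, 33.8% higher and 36.1% lower. Against CD31+ cells the same split of 2 higher and 7 lower was found, where 73.7% of all genes were called, 34.3% higher and 39.4% lower. CD31+ cells had 6 members higher and 2 lower than CD324+ cells, where 65.6% of genes were called, 31.7% higher and 34% lower. These 3 comparisons share their libraries and are not independent of each other. Between E14.5 and E18.5, CD54+CD31- cells gained in 7 members and lost in 1, where 69.4% of 15863 genes were called, 35.9% higher and 33.5% lower. The median log2 fold change of the members was -1.14, -1.28, 0.60 and 0.83 in these 4 comparisons, against -0.01, -0.13, -0.03 and 0.03 over all genes tested. Differences both called and above 4-fold were found for 6, 6, 2 and 4 members, where 23.6, 24.5, 23 and 23.1% of all genes tested had them.

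**Figure D1:**
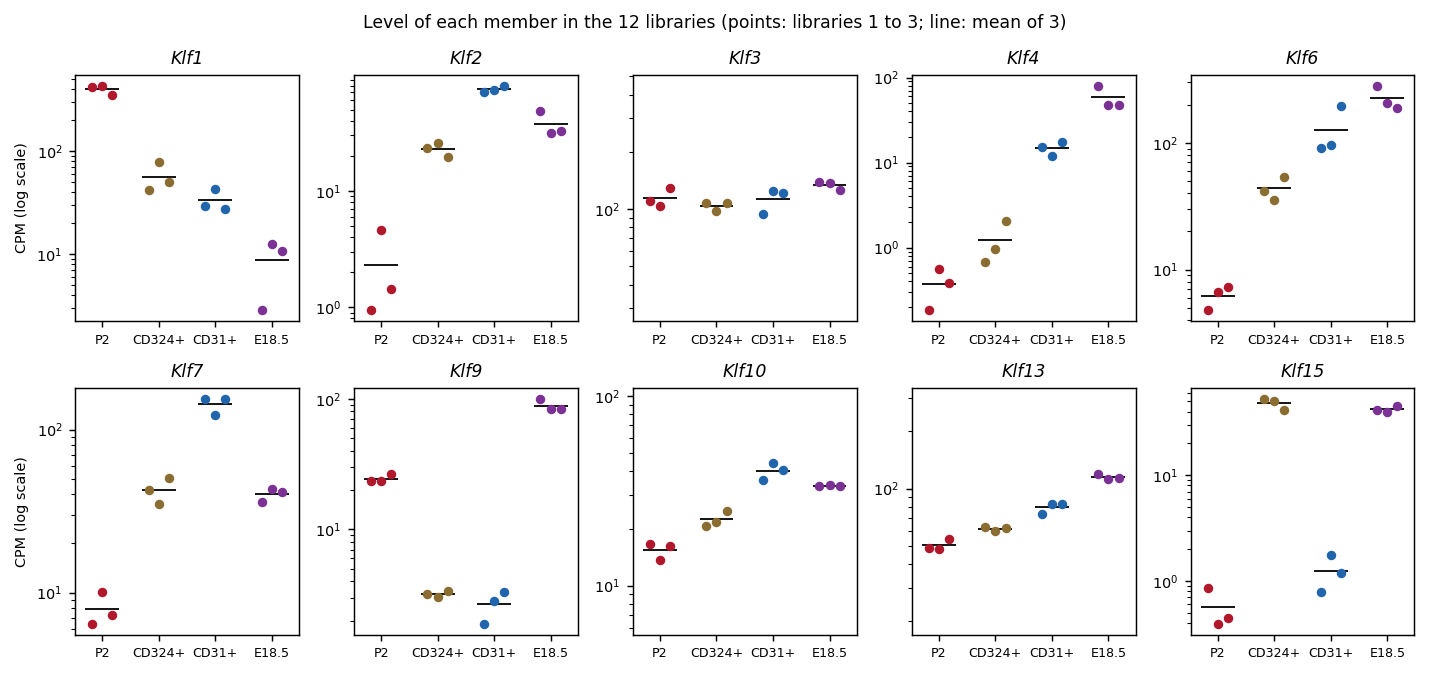
Level of each member in CPM on a log axis, with 1 point per library and a line at the mean of 3, for P2, CD324+ and CD31+ cells at E14.5 and CD54+CD31- cells at E18.5. Klf1 was above 300 CPM in P2 cells alone, Klf15 was below 2 CPM in P2 and CD31+ cells, and Klf3 spanned 94.1 to 139 CPM over all 12 libraries.

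Klf1, the erythroid Kruppel-like factor, marked the P2 cells. It was at 414, 429 and 347 CPM in the 3 P2 libraries, at 41.8, 77.4 and 49.5 in CD324+ cells, at 29.3, 43.0 and 27.5 in CD31+ cells, and at 2.83, 12.4 and 10.7 at E18.5. The lowest P2 library lay far above the highest of any other group, CD324+ and CD31+ libraries overlapped, and E18.5 libraries lay below all E14.5 libraries. P2 cells exceeded CD324+ cells by a log2 fold change of 2.80 ± 0.24 (SE, 3 libraries a group, adjusted p = 2.49e-06) and CD31+ cells by 3.57 ± 0.25 (adjusted p = 5.98e-07). Klf1 was lower in CD31+ than in CD324+ cells by -0.76 ± 0.23 (adjusted p = 0.0141). That last call was lost without CD31+ library 1 (adjusted p = 0.0525) and with all 12 libraries in one fit (adjusted p = 0.142). From E14.5 to E18.5, Klf1 fell in CD54+CD31- cells by -2.52 ± 0.54 (adjusted p = 0.00516).

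The Klf1 of CD324+ cells stood in the same proportion to P2 cells as other erythroid genes did. As a percentage of the P2 mean, the 3 CD324+ libraries were at 10.5, 19.5 and 12.5% for Klf1, at 9.81, 19.7 and 14.0% for Gata1, the master regulator of erythropoiesis, and at 11.2, 19.2 and 12.9% for the erythropoietin receptor gene Epor. Library 2 was the highest for each of them, and also for the summed level of 8 erythroid markers with counts (860 CPM against 539 and 654). At E18.5, the means were 2.18% for Klf1, 2.49% for Gata1 and 2.54% for Epor, and library 1 was the lowest for all of them. In CD31+ cells Klf1 was at 8.38% of the P2 mean and Ermap, a red cell antigen gene, at 8.25%. Gata1 was at 15.1% there and Epor at 15.3%. The CD31+ libraries also held megakaryocyte markers, whose 6 genes summed to 456 to 727 CPM against 49.7 to 60.7 in CD324+ cells, and megakaryocytes are known to use Gata1. The part of erythroid cells and megakaryocytes in these values was not tested.

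Factors known to act on the Klf1 gene were high beside it. The 5 tested genes of that group, Gata1, Gata2, Tal1, Lmo2 and Ldb1, encode the GATA factors and their LIM-domain complex. All 5 exceeded their CD324+ level in P2 cells, with a median log2 difference of 2.60, where 33.8% of all genes were higher. Gata1 differed by 2.77 ± 0.21 (adjusted p = 9.50e-07) and Tal1 by 2.60 ± 0.23 (adjusted p = 2.80e-06). Against CD31+ cells 4 of the 5 were higher and 1 was lower, where 34.3% of all genes were higher and 39.4% lower.

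In P2 against CD324+ cells 33.8% of all genes were higher and 36.1% lower. Of 17 tested genes known as Klf1 targets, 13 rose above and 3 fell below their CD324+ level in P2 cells (median 1.32). Among the higher genes the largest differences were in Bcl11a, a repressor of embryonic globins (3.19 ± 0.17), the water channel Aqp1 (3.04 ± 0.27), the membrane skeleton gene Add2 (2.78 ± 0.18) and Rhag of the Rhesus complex (2.57 ± 0.19). The 3 lower genes were Bcam, the Lutheran antigen (-4.30 ± 0.19), Xpo7, an exportin of late erythroblasts (-1.52 ± 0.15), and Slc4a1, the band 3 anion exchanger (-0.91 ± 0.25). E2f2 was not called at -0.04 ± 0.08. Aqp1 was higher still in CD31+ cells, at 388 to 534 CPM against 145 to 177 in P2 cells. The 3 genes whose level over the 12 libraries was most like that of Klf1 were Rhd (Pearson's r = 0.997 of log2(CPM + 1)), Ermap (r = 0.995) and Ubac1 (r = 0.995), among 10721 genes compared. Rhd and Ermap encode red cell blood group antigens. These r values are descriptions over 4 groups whose libraries share their cell mix.

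Klf2 and Klf4, the flow-responsive pair of endothelium, were both lowest in P2 cells, but only Klf2 was highest in CD31+ cells. Klf2 was at 70.2, 73.9 and 80.0 CPM in CD31+ cells, at 48.6, 31.2 and 32.8 at E18.5, at 23.5, 25.5 and 19.7 in CD324+ cells, and at 0.94, 4.58 and 1.44 in P2 cells. No pair of groups overlapped. CD31+ cells exceeded CD324+ cells by 1.70 ± 0.39 (adjusted p = 0.00286), and P2 cells were lower than CD31+ cells by -5.01 ± 0.46 (adjusted p = 3.48e-06) and than CD324+ cells by -3.31 ± 0.43 (adjusted p = 5.55e-05). P2 library 2, the highest of its group for Klf2, was also the highest for endothelial markers (480 CPM against 89.8 and 143). Without it the P2 differences were larger, at -5.95 and -4.25. In CD54+CD31- cells Klf2 rose from E14.5 to E18.5 by 0.90 ± 0.21 (adjusted p = 0.0077), a call that was lost with all 12 libraries in one fit (0.71, adjusted p = 0.136). All 10 endothelial markers rose in the same comparison, from a sum of 48.2 to 77.7 CPM to one of 228 to 288 (median 2.18), and their part in the rise of Klf2 and Klf4 was not tested. At E18.5 Pecam1 reached 2.24 to 3.61% of its CD31+ mean, Klf2 41.8 to 65.1% and Klf4 316 to 536%.

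The Klf2 of CD324+ cells did not stand in the proportion of endothelial markers. It was at 26.3 to 34.2% of the CD31+ mean in the 3 CD324+ libraries, whereas Pecam1, the gene of CD31, was at 0.70 to 1.25% and the VEGF receptor gene Kdr at 0.17 to 0.46%. In P2 cells, in contrast, Klf2 was at 1.26, 6.13 and 1.93% and Pecam1 at 0.77, 4.90 and 1.395%.

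The MEKK3-MEK5-ERK5-MEF2 cascade and the CCM proteins that restrain it control Klf2 in endothelium. All 10 tested genes of this group were higher in CD31+ than in CD324+ cells (median 0.83), where 31.7% of all genes were higher. Mef2c was at 251 to 268 CPM in CD31+ cells and 5.37 to 9.38 in CD324+ cells, a difference of 5.04 ± 0.22 (adjusted p = 1.43e-08), and Map3k3, which encodes MEKK3, differed by 1.86 ± 0.14. The inhibitors Krit1 (0.37 ± 0.10), Ccm2 (0.27 ± 0.10) and Pdcd10 (0.42 ± 0.15) were higher by less, and all 10 were higher under each of the 3 scalings, but 9 without CD324+ library 2.

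Of 11 tested vascular genes known to respond to Klf2 or Klf4, 9 were higher and 1 lower in CD31+ than in CD324+ cells. The shares over all genes there were 31.7% higher and 34% lower. Nos3, the endothelial nitric oxide synthase, was at 15.2 to 17.7 CPM in CD31+ cells and at 0.10 to 0.19 in CD324+ cells. Thbd, which encodes the anticoagulant thrombomodulin, was at 25.6 to 32.6 against 0.17 to 1.01 CPM. Vcam1, an adhesion molecule, was the lower one (-1.48 ± 0.17, adjusted p = 2.98e-05). Edn1 (8.34 ± 0.65) and Sele (7.76 ± 1.13) were among the higher ones. The list was not split into genes that Klf2 raises and genes that it represses, so its counts do not show a direction of Klf2 action. The list holds Cdh5, itself an endothelial marker. Genes most like Klf2 were Syt7 (r = 0.996), Trib1 (r = 0.996) and Efnb1 (r = 0.995).

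Klf4 was highest at E18.5, with 80.0, 48.0 and 47.2 CPM, then in CD31+ cells with 15.2, 12.1 and 17.6. It was at 0.68, 0.98 and 2.07 CPM in CD324+ cells and at 0.18, 0.56 and 0.39 in P2 cells, which is 8 to 27 counts a library there. The groups did not overlap. The rise in CD54+CD31- cells from E14.5 to E18.5 was 5.73 ± 0.47 (adjusted p = 7.71e-05), and CD31+ exceeded CD324+ cells by 3.56 ± 0.41 (adjusted p = 2.42e-05). P2 cells were lower than CD324+ cells by -1.73 ± 0.46 (adjusted p = 0.00671) and than CD31+ cells by -5.30 ± 0.46 (adjusted p = 2.25e-06). CD324+ library 3 decided part of the size: without it the difference of P2 from CD324+ cells was -1.13 (adjusted p = 0.037) and that of CD31+ from CD324+ cells was 4.16. E18.5 library 1, with the most lung RNA, had the highest Klf4 as well as the highest Klf2 and Klf6 of its group. Without that library Klf4 still rose by 5.39. The gene most like Klf4 was Nr4a1, an immediate early nuclear receptor (r = 0.994), followed by Fstl1 and Celf2 (both r = 0.994).

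Klf6 and Klf7, closely related broad activators, both had their lowest level in P2 cells. Klf6, which many cells induce upon injury or growth factors, was at 4.78, 6.60 and 7.32 CPM in P2 cells, at 41.8, 35.4 and 54.1 in CD324+ cells, at 91.3, 96.5 and 193 in CD31+ cells, and at 281, 204 and 186 at E18.5. CD31+ and E18.5 libraries overlapped through CD31+ library 3. P2 cells were lower than CD324+ cells by -2.83 ± 0.31 (adjusted p = 1.49e-05) and than CD31+ cells by -4.36 ± 0.33 (adjusted p = 9.34e-07). CD31+ exceeded CD324+ cells by 1.53 ± 0.29 (adjusted p = 9.30e-04), and Klf6 rose in CD54+CD31- cells from E14.5 to E18.5 by 2.55 ± 0.23 (adjusted p = 1.15e-04).

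Klf6 moved with the immediate early genes, which cells switch on within minutes of a stimulus, tissue dissociation among them. The summed level of 18 such genes was 128 to 167 CPM in P2 cells, 327 to 549 in CD324+ cells, 709 to 1682 in CD31+ cells and 2868 to 4158 at E18.5. In each of the 4 groups the library with the highest Klf6 was also the one with the highest sum. For Klf4 this held in 3 of the 4 groups, for Klf2 in 2 and for Klf10 in 1. Of 17 genes tested, 12 were higher and none lower in CD31+ than in CD324+ cells (median 1.79), beside 31.7% of all genes higher. At E18.5, 17 of 18 were higher than at E14.5 (median 3.10), beside 35.9% of all genes. Fos was at 14.2 to 36.1 CPM in CD324+ cells, 60.0 to 193 in CD31+ cells and 420 to 755 at E18.5. The part of an immediate early response in the levels of Klf2, Klf4 and Klf6 was not tested. Genes most like Klf6 were Tbc1d23 and Ube2h (both r = 0.990) and Vwa5a (r = 0.986).

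**Figure D2:**
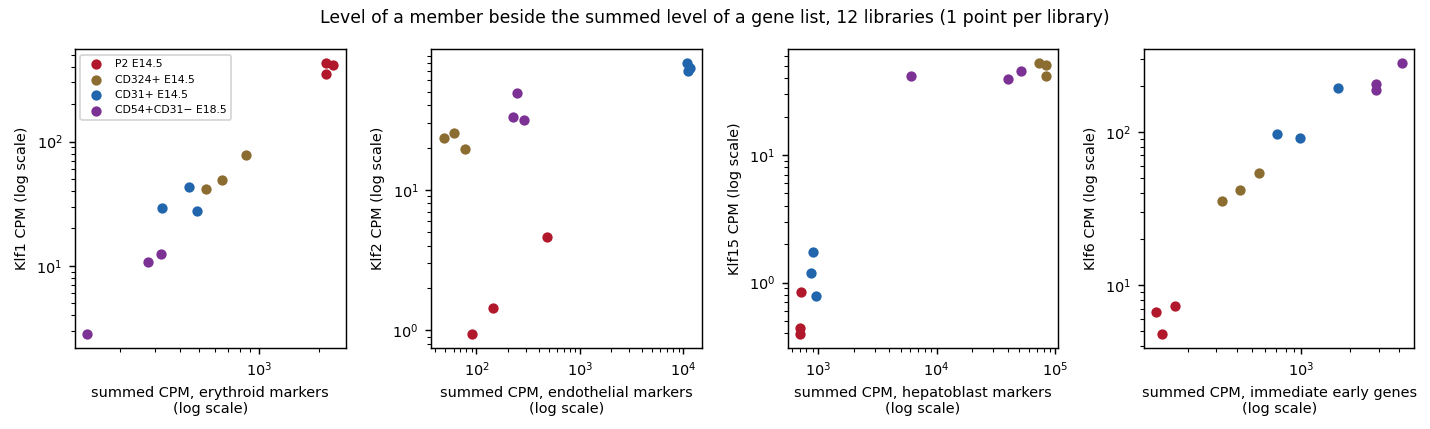
Level of a member (vertical, CPM) against the summed CPM of a gene list (horizontal), both on log axes, with 1 point per library coloured by group. Klf1 is set against erythroid, Klf2 against endothelial and Klf15 against hepatoblast markers, and Klf6 against immediate early genes. CD324+ libraries had Klf2 of 19.7 to 25.5 CPM at endothelial sums of 48.2 to 77.7, and E18.5 library 1 kept Klf15 at 41.8 CPM with hepatoblast markers at 6050.

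Klf7, best known from developing neurons, was highest in CD31+ cells. It was at 154, 123 and 153 CPM there, at 42.6, 34.9 and 50.5 in CD324+ cells, at 35.8, 43.2 and 41.4 at E18.5, and at 6.45, 10.1 and 7.24 in P2 cells. CD31+ libraries stood above and P2 libraries below all others, while both CD54+CD31- groups overlapped. CD31+ cells exceeded CD324+ cells by 1.74 ± 0.19 (adjusted p = 1.41e-05), and P2 cells were lower than CD324+ cells by -2.44 ± 0.19 (adjusted p = 1.24e-06). Unlike Klf6, it was not called between E14.5 and E18.5: the difference was 0.10 ± 0.15 with an interval of 2 SE from -0.20 to 0.39 (adjusted p = 0.578). Its exons overlap those of Gm26649 on the other strand over 3196 bases, and whether the counting used strand is not given in the sources used here. Genes most like Klf7 were Fchsd2 (r = 0.995), Fam3c (r = 0.994) and Dmd, the dystrophin gene (r = 0.994).

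Klf9 and Klf13 belong to the subgroup that binds Sin3A, and they behaved differently. Klf9, a gene induced by glucocorticoids and thyroid hormone, was at 23.5, 23.4 and 26.7 CPM in P2 cells, at 3.22, 3.05 and 3.40 in CD324+ cells, at 1.90, 2.85 and 3.31 in CD31+ cells, and at 99.6, 83.1 and 83.6 at E18.5. P2 and E18.5 libraries were each clear of all others, and CD324+ and CD31+ libraries overlapped. P2 cells exceeded CD324+ cells by 2.90 ± 0.19 (adjusted p = 3.38e-07) and CD31+ cells by 3.17 ± 0.19 (adjusted p = 2.40e-07). Klf9 was thus the only member besides Klf1 that was higher in P2 cells. CD31+ and CD324+ cells differed by -0.27 ± 0.19 (adjusted p = 0.239), and by -0.53 (adjusted p = 0.0327) without CD31+ library 3.

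From E14.5 to E18.5, Klf9 rose in CD54+CD31- cells by 4.97 ± 0.13 (adjusted p = 1.21e-05), and by 4.85 without E18.5 library 1. Of 8 tested genes of glucocorticoid and thyroid hormone signalling, 5 also rose and none fell, where 35.9% of all genes rose and 33.5% fell. In P2 cells, where Klf9 was high too, the same list had 3 higher and 4 lower than in CD324+ cells and 2 higher and 4 lower than in CD31+ cells. Over all genes, 33.8% were higher and 36.1% lower than in CD324+ cells, and 34.3% higher and 39.4% lower than in CD31+ cells. In P2 cells Tsc22d3 (-1.12 ± 0.14) and Fkbp5 (-1.45 ± 0.08) were among those below their CD324+ level. The genes that rose at E18.5 were the glucocorticoid-induced genes Zbtb16 (7.12 ± 0.32), Per1 (3.01 ± 0.14) and Tsc22d3 (2.55 ± 0.27), and the receptor genes Nr3c1 (0.86 ± 0.09) and Thra (0.92 ± 0.12). Fkbp5 (-0.19 ± 0.18), Sgk1 (-0.32 ± 0.25) and Thrb (-0.46 ± 0.39) were not called. Lung epithelial and mesenchymal markers moved with these genes, and their part was not tested. Genes most like Klf9 were Nfix, a nuclear factor I gene (r = 0.995), 4930523C07Rik (r = 0.990) and Rec8 (r = 0.985). Nfix was at a mean of 46.4 CPM in P2 cells, 10.8 in CD324+ cells, 9.25 in CD31+ cells and 154 at E18.5.

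Klf13, known from T cells and heart, was present throughout and differed little. It was at 48.9, 48.1 and 54.1 CPM in P2 cells, at 62.6, 59.6 and 62.2 in CD324+ cells, at 73.8, 82.5 and 82.6 in CD31+ cells, and at 120, 113 and 114 at E18.5. Its groups did not overlap although the highest group mean was only 2.29 times the lowest. P2 cells were lower than CD324+ cells by -0.31 ± 0.08 (adjusted p = 0.00804) and than CD31+ cells by -0.67 ± 0.08 (adjusted p = 3.81e-05), and Klf13 rose at E18.5 by 1.10 ± 0.09 (adjusted p = 6.65e-05). CD31+ exceeded CD324+ cells by 0.37 ± 0.08 (adjusted p = 0.0032), which was not called without CD324+ library 2 (0.26, adjusted p = 0.0524).

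Klf10, the TGF-beta-inducible early gene, was highest in CD31+ cells. It was at 35.8, 44.5 and 40.8 CPM there, at 33.4, 33.8 and 33.3 at E18.5, at 20.7, 21.8 and 24.8 in CD324+ cells, and at 16.6, 13.7 and 16.1 in P2 cells. No groups overlapped, and the highest mean was 2.61 times the lowest. CD31+ exceeded CD324+ cells by 0.84 ± 0.12 (adjusted p = 1.14e-04), P2 cells were lower than CD324+ cells by -0.55 ± 0.12 (adjusted p = 0.00183) and than CD31+ cells by -1.397 ± 0.12 (adjusted p = 2.23e-06), and Klf10 rose at E18.5 by 0.77 ± 0.09 (adjusted p = 3.44e-04). Among TGF-beta ligands, receptors and Smads, CD31+ cells had 6 of 10 tested genes higher and 2 lower than CD324+ cells, and P2 cells had 1 higher (Tgfb1, 2.19 ± 0.18) and 6 lower than CD324+ cells. In P2 cells all 10 lay below their CD31+ level (median -1.62), among them the receptor Tgfbr2 (-4.36 ± 0.26) and the feedback inhibitor Smad7 (-4.18 ± 0.16). At E18.5, 8 of the 10 were higher than at E14.5 and 1, Smad2, was lower (-0.36 ± 0.08). Smad2 was not called with the library factors of the study. Tgfb2 was at 153 to 194 CPM at E18.5 against 1.33 to 1.70. Over all genes, shares higher and lower in these 4 comparisons were 31.7 and 34%, 33.8 and 36.1%, 34.3 and 39.4%, and 35.9 and 33.5%.

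Klf3, a repressor that recruits CtBP and is known as a Klf1 target, was nearly level. It was at 110, 104 and 129 CPM in P2 cells, at 108, 97.3 and 108 in CD324+ cells, at 94.1, 125 and 121 in CD31+ cells, and at 139, 137 and 126 at E18.5. All 4 groups overlapped with a neighbour. P2 and CD324+ cells differed by 0.12 ± 0.12 (interval -0.13 to 0.37), P2 and CD31+ cells by 0.00 ± 0.12 (interval -0.25 to 0.25), and CD31+ and CD324+ cells by 0.12 ± 0.12 (interval -0.13 to 0.37). With the library factors of the study in place of TMM, P2 cells were lower than CD31+ cells by -0.37 (adjusted p = 0.0168), a scaling that moved the median of all genes from -0.13 to -0.50. The test over all 3 populations then also called Klf3 (adjusted p = 0.038, against 0.591). In the separate fit of CD54+CD31- cells Klf3 rose at E18.5 by 0.54 ± 0.10 (adjusted p = 0.00236). Over 404 exon bases it overlaps Gm20033 on the other strand.

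Klf15, an activator of amino acid breakdown and gluconeogenesis, was a gene of the CD54+CD31- cells at both ages. It was at 52.6, 50.5 and 41.3 CPM in CD324+ cells, at 41.8, 39.4 and 45.2 at E18.5, at 0.79, 1.75 and 1.19 in CD31+ cells, and at 0.85, 0.40 and 0.44 in P2 cells. The ages overlapped, and so did CD31+ and P2 cells, with a wide gap between these pairs. P2 cells were lower than CD324+ cells by -6.45 ± 0.33 (adjusted p = 4.83e-08), the largest difference of any member in the 4 comparisons, and CD31+ cells by -5.28 ± 0.30 (adjusted p = 1.27e-07). P2 cells were lower than CD31+ cells by -1.17 ± 0.34 (adjusted p = 0.00989), but not without CD31+ library 2 (-0.78, adjusted p = 0.0532). Between the ages the difference was -0.01 ± 0.13, with an interval from -0.26 to 0.25 (adjusted p = 0.955).

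In P2 cells Klf15 was at 0.82 to 1.76% of its CD324+ mean, where albumin (Alb) was at 0.84 to 0.88%, Hnf4a at 1.28 to 1.46% and Cdh1 at 0.97 to 1.20%. In CD31+ cells it was at 1.64 to 3.63%, with Alb at 1.04 to 1.08%. At E18.5 it did not follow these markers: Klf15 was at 86.9, 81.9 and 93.8% of the CD324+ mean in libraries 1 to 3, while Alb was at 5.37, 59.5 and 77.2% and Hnf4a at 2.79, 21.8 and 29.6%. Cdh1, which encodes CD324, was at 204, 145 and 152%. Genes most like Klf15 were Arhgef16 (r = 0.996), the desmosomal gene Dsp (r = 0.996) and Fbln1 (r = 0.995).

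The metabolic genes known to depend on Klf15 were called in both directions at E14.5. Of 6 tested, 3 (Gpt, Tat and Pck1) were lower and 2 (Prodh and Bcat2) higher in P2 cells against CD324+ cells, and the same 3 and 2 were lower and higher in CD31+ cells. Over all genes, 36.1% were lower and 33.8% higher in P2 cells, and 34% lower and 31.7% higher in CD31+ cells. Pck1, which encodes the gluconeogenic phosphoenolpyruvate carboxykinase, differed by -5.48 ± 0.52 between P2 and CD324+ cells (adjusted p = 4.64e-06). Tat, a tyrosine-degrading enzyme of the mature liver, was still at 1.83 to 2.12 CPM in CD324+ cells. At E18.5 only Tdo2 of the 6 was higher than at E14.5 (2.92 ± 0.54, adjusted p = 0.00269), at 1.26 to 1.56 CPM, and none was lower, where 35.9% of all genes were higher and 33.5% lower. Without E18.5 library 1 or with the library factors of the study, 2 of the 6 were higher.

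Per kilobase, the make-up of the family differed between populations. In P2 cells Klf1 made up 87.7 to 90.7% of the summed level of the 10 members, followed by Klf3 with 2.99 to 4.45%. In CD324+ cells Klf1 (28.1 to 43.0%) and Klf15 (14.6 to 19.3%) led. In CD31+ cells Klf2 made up 26.6 to 29.4%, Klf6 15.4 to 27.1% and Klf1 11.1 to 19.6%. Klf6 overlapped with each of the other two in level. At E18.5 Klf6 led with 27.3 to 32.9%, and Klf2, Klf4 and Klf9 each made up 9.89 to 13.5%. The summed level itself was 289 ± 26.9 CPM per kilobase for P2 (mean ± SD of 3 libraries), 170 ± 21.6 at E18.5, 145 ± 16.7 for CD31+ and 105 ± 10.7 for CD324+ cells.

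**Figure D3:**
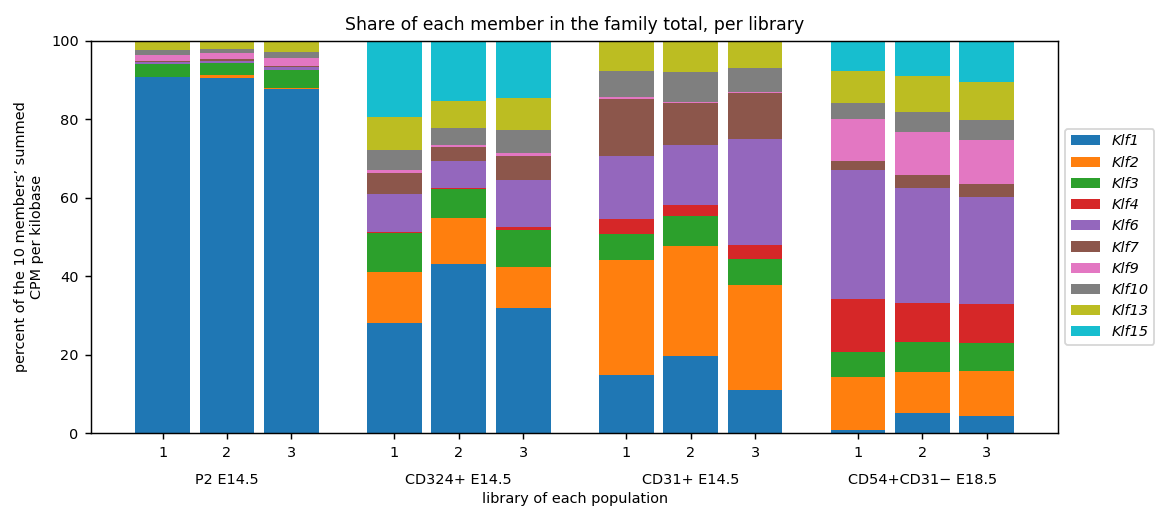
Share of each member in the summed CPM per kilobase of the 10 members, in percent, with 1 stacked bar for each of the 12 libraries. Klf1 filled 87.7 to 90.7% of the P2 bars and 0.95 to 5.10% of the E18.5 bars, where Klf6 was the largest share.

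The other 7 Klf and 9 Sp genes were counted beside the members, and 12 of these 16 passed the low count filter at E14.5. P2 cells had 6 of the 12 higher and 3 lower than CD324+ cells, where 33.8% of all genes were higher and 36.1% lower. These counts became 5 and 5 with the library factors of the study. Klf12, a repressor, was higher in CD324+ cells than in both other populations, at 137, 94.8 and 124 CPM against 3.81, 3.12 and 4.29 in P2 cells (-5.00 ± 0.18, adjusted p = 2.99e-09) and 35.0, 31.4 and 32.8 in CD31+ cells (-1.85 ± 0.15 against CD324+ cells, adjusted p = 1.87e-06). Klf16 was at 51.6, 46.6 and 49.6 CPM in P2 cells and 16.9, 22.3 and 19.2 in CD324+ cells (1.32 ± 0.14, adjusted p = 1.35e-05). Sp2 was at 98.2, 98.4 and 101 CPM against 32.6, 38.9 and 33.4 (1.49 ± 0.09, adjusted p = 1.55e-07). Sp5 was at 1.36 to 1.45 CPM in CD324+ cells, at 0 counts in all CD31+ libraries and at no more than 4 counts in a P2 library. Sp1, the broadly used founder of the group, was at 110 to 157 CPM in all 12 libraries and was not called in any comparison.

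At E18.5, Klf5, a factor of lung and gut epithelium, was at 197, 124 and 120 CPM, against 0.91, 0.82 and 0.47 in CD324+ cells and never above 3.81 in the E14.5 libraries. The rise was 7.85 ± 0.38 (adjusted p = 1.85e-05). Its highest library was library 1, which also had the most lung epithelial RNA. Klf8 rose as well (3.34 ± 0.34, adjusted p = 1.81e-04), while Klf12 fell by -1.56 ± 0.37 (adjusted p = 0.00859) and Klf16 by -1.10 ± 0.13 (adjusted p = 4.10e-04).

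**Figure D4:**
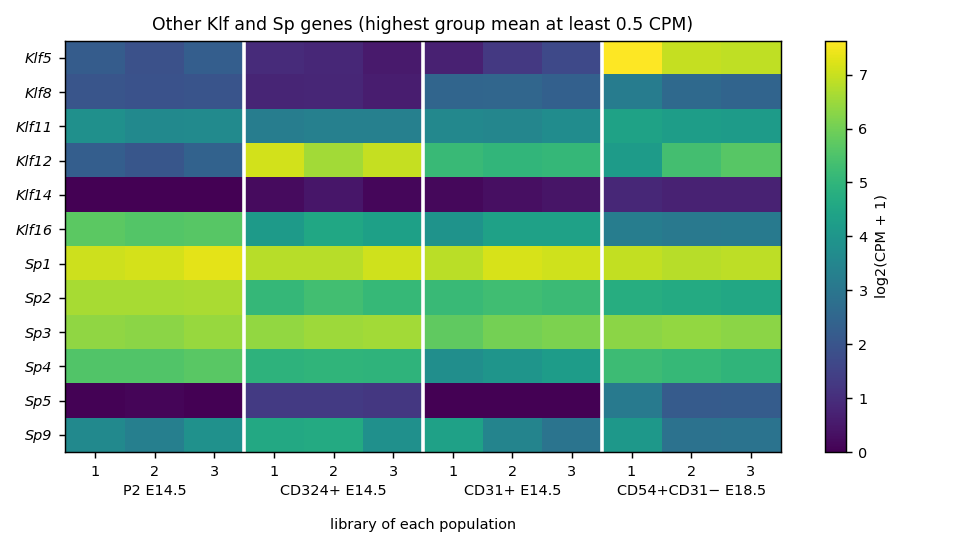
Level of the other Klf and Sp genes as log2(CPM + 1) in colour, with 1 row per gene and 1 column per library, for genes whose highest group mean was at least 0.5 CPM. Klf5 is bright at E18.5 alone, Klf12 is brightest in CD324+ cells, and Sp1 is nearly even.

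Partners through which Kruppel-like factors act were measured in all groups. Of 13 tested cofactor genes, 7 were above and 4 below their CD324+ level in P2 cells, beside 33.8 and 36.1% of all genes. These counts became 4 and 6 with the library factors of the study. Ctbp2, a corepressor used by Klf3, Klf8 and Klf12, was counted at 1.14 to 1.46 CPM in P2 cells. It was at 0.03 to 0.15 CPM in CD324+ cells (3.88 ± 0.58, adjusted p = 1.49e-04). These Ctbp2 values lie near 0, so the difference rests on few counts and was not read as absence of the RNA. Fhl3, another Klf3 partner (-2.90 ± 0.22), and Smurf1, a ubiquitin ligase known to target Klf2 (-2.17 ± 0.19), were lower in P2 cells.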

How the data were processed

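Cells from 12 sorted FL samples were measured by RNA-seq. Per the labels, livers were digested with liberase, RNA was depleted of rRNA, and libraries were made with the SMARTer Pico stranded total RNA kit. The submitters' processing notes name cutadapt 1.11, STAR 2.5.0a, featureCounts 1.4.6-p3, DESeq2, R 3.5.1 and the build GRCm38. The authors deposited, for each sample, a raw count and a normalized value for every gene. The deposited normalized column is a score equal to the count times 1 factor per library, and was used only to recover that factor. Whether counting used strand is not given in the sources used here. The E14.5 samples came from independent litters per the study. For the E18.5 samples no source used here says whether they came from separate litters, so p-values that involve them measure only the spread between these samples, which may be technical.

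Counts were tested with edgeR 4.0.16 in R 4.3.3 (TMM, filterByExpr, quasi-likelihood F test, Benjamini-Hochberg adjustment over all genes tested, called at adjusted p below 0.05). The 9 E14.5 libraries formed one fit and the 6 CD54+CD31- libraries another. SE is the log2 fold change over the square root of F, and an interval is 2 SE to each side. Replicates differed far beyond sampling noise. Deviations of same-numbered CD324+ and CD31+ libraries were correlated (r = 0.33, 0.26 and 0.12), so the numbers may pair those 2 groups. The labels do not state it, and correlations of differently numbered libraries were not computed. Library 3 of CD31+ and of P2 cells had an r of 0.34. No other 2 groups had all 3 correlations above 0.1. Of the 38127 genes, 39 names stood on more than 1 row. Counts of Cdk8, Zc3h7a and Il1rapl1 took 10.8 to 23.1% of each library. Ahsp had no row of that name, and 8 listed genes were listed at 0 in all 12 libraries and were not tested: Fbxw7, Zfpm1, Alas2, Icam4, Piezo1, Ccl2, Hsd11b1 and Lrat. Alas2 is used by all erythroid cells, so a value at or near 0 in these tables was not read as absence of the RNA. Exon lengths came from GENCODE on GRCm38 and promoters from RefSeq. The scripts were tested on simulated data.

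The members, gene lists and motifs were chosen with earlier results of these data known. Named genes are the members, genes of these lists, and, for members whose highest group mean was at least 4 times the lowest, the 3 genes of at least 5 CPM with the highest r. DESeq2 1.42.0, other scalings and filters, a replicate block, all 12 libraries in one fit, leaving out genes above 1% of a library and leaving out each library were tried.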

Additional observations from a re-analysis of the deposited data

How the results depend on the processing

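Over 677 recomputed values for single members, 650 kept their direction and their side of the threshold, 5 lost a call, 1 gained one, and 21 changed sign, of which Klf3 in P2 against CD31+ cells with the authors' factors was then called. Each sign change was in a difference that had not been called. For Klf3 in P2 against CD324+ cells it was -0.15 with the authors' library factors. For Klf3 in P2 against CD31+ cells it was -0.021 with the size factors of DESeq2 and with DESeq2 itself, -0.37 with the authors' factors, -0.14 with a minimum of 10 counts, and -0.12 and -0.088 without CD31+ library 1 or P2 library 3. For Klf3 in CD31+ against CD324+ cells it was -0.016, -0.040 and -0.011 without CD324+ library 2, CD31+ library 2 or CD31+ library 3, and up to 0.24 without CD31+ library 1. For Klf15 at E18.5 against E14.5 it was 0.021 with the size factors and with DESeq2, 0.23 with the authors' factors, 0.0064 with no filter, 0.14 with a minimum of 10 counts, 0.038 without genes above 1% of a library, and 0.047, 0.0052 and 0.042 without CD324+ library 1, CD324+ library 2 or E18.5 library 2. For Klf7 there it was -0.088 with all 12 libraries in one fit and -0.048 without CD324+ library 2. Without CD324+ library 3 the Klf7 difference was 0.20, and its highest value over all settings was 0.33. The cause was not tested.

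No count of called members, or of all genes called, moved by more than 1.5 times. Counts over lists did, and the following are examples with the authors' factors. The cofactors higher in P2 than in CD324+ cells went from 7 to 4, and other Klf and Sp genes lower there from 3 to 5. Klf15 targets higher at E18.5 went from 1 to 2, genes acting on Klf2 from 4 to 8. Klf1 targets lower at E18.5 went from 6 to 3. Glucocorticoid and thyroid hormone genes higher in P2 than in CD31+ cells went from 2 to 1. The authors' factors shifted the median of all genes in the 4 comparisons from -0.01, -0.13, -0.03 and 0.03 to -0.27, -0.50, 0.08 and 0.27. The share of called genes that were higher went from 48.4, 46.6, 48.3 and 51.7% to 38.2, 33.9, 53.4 and 60.9%. Klf4 dropped out of the E14.5 fit at a minimum of 10 counts. The replicate block changed no call of a member, also between CD31+ and CD324+ cells, the only 2 groups that the numbers may pair. Over all 2-group combinations the correlations were -0.09 to 0.34. With a replicate block 9, 9, 9, 8 and 8 members were called, as without it, and 13473, 10910, 11460, 10326 and 10329 genes against 13442, 10815, 11395, 10150 and 11014. Low counts limited Klf4 and Klf15 in P2 cells, where libraries held 8 to 37 counts.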
